A study of Mus musculus with 30 samples.

Results

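Hepatocytes near the portal vein take up amino acids and lactate from the gut blood, turn the nitrogen into urea and release glucose. Members of this programme followed here are 10 mouse genes: Cps1, Otc, Ass1, Asl and Arg1 of the urea cycle, Pck1 and G6pc of gluconeogenesis, and Hal, Sds and Gls2, which break down histidine, serine and glutamine. A probe belonged to a member when the RefSeq transcript named for it in the array files is one of that gene. By this rule 9 of the 41174 probes on the array belonged to 8 of the 10 genes, with 2 probes for Otc, among 17016 genes named on the array. Cps1 and Pck1 were not analysed here.

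Liver RNA came from 14 female C57BL/6 mice that had received the carbon black nanoparticle Printex 90 through the trachea, at 0.162 mg per animal, and from 16 female C57BL/6 control mice whose treatment is labelled none. The mice arrived at 5 to 6 weeks of age and had free access to food and water. The particles were suspended by sonication in saline (0.9% NaCl) with 10% cell-free lung lavage fluid, and 40 µl of suspension followed by 150 µl of air were instilled. The control label does not say whether these animals received the vehicle, so particles, vehicle and instillation cannot be told apart. The series text speaks of 6 mice per group, fewer than the arrays analysed here.

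Each mouse had 1 two-colour Agilent array, with its liver RNA in Cy5 and a commercial reference RNA pooled from mouse sources in Cy3. All levels are log2 ratios of Cy5 over Cy3, and they are compared between animals within a probe only. Within each group the animals are numbered in 3 separate blocks of close numbers, here called exposed runs 1, 2 and 3 (4, 5 and 5 mice) and control runs 1, 2 and 3 (6, 5 and 5 mice). What sets the runs apart is not stated in the labels. Tests are those of limma with slide as a random block, adjusted by the Benjamini-Hochberg method over 23607 tested probes, with a threshold of 0.05.

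The array-wide median signal lay between 104 and 196 in Cy5 and between 43 and 113 in Cy3. All 9 member probes were well above background in Cy5 on 30 of 30 arrays and saturated on none. In Cy3 the Otc probes were well above background on 24 and 27 arrays, the Sds probe on 28 and the others on 30. Of 7 hepatocyte markers 5 were on the array and all 5 were well above background on every array, with a mean log2 ratio of 4.75 to 5.81 in exposed and 4.66 to 5.98 in control animals. Some arrays stood apart. That of exposed animal 176 had the lowest median Cy5 signal of all 30 (104), and among exposed arrays the fewest probes detected above background in the liver channel (50.02%), the smallest SD of log ratios (1.31, next 1.38) and the lowest mean over 1004 probes high in liver (4.02, next 4.31). Exposed animal 179, of the same run, had the lowest mean over the 8 members in Cy5 signal normalised between arrays (13.94, next 14.09 in control 551). Controls 572 and 596, the only arrays of slide 6, had the fewest probes detected above background in the liver channel of all 30 arrays (42.8% and 45.1%). Control 574 had the smallest SD of log ratios of all 30 arrays (1.24) and the lowest mean over the 1004 probes high in liver (3.84). Without animal 176, 0 of 8 members were called in the ratio in any of the 6 comparisons made, and 0 of 8 between exposed and control animals with slide as a fixed effect, where slide 6 adds nothing to that difference.

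Whole liver does not show where in the lobule a gene is expressed, and a smaller share of hepatocytes cannot be told apart from less RNA per hepatocyte.

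The urea cycle joins ammonia, bicarbonate and the nitrogen of aspartate into urea in the mitochondria and cytosol of the hepatocyte. Its genes, like those of gluconeogenesis, are known to rise with fasting, glucagon and glucocorticoids and with a protein-rich diet. Hal, Sds and Gls2 feed the same pathways, since each releases ammonia from an amino acid, and serine yields pyruvate for glucose.

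In build GRCm38.p6 the genes lie at chrX:10252230-10321024 (Otc), chr2:31470270-31520670 (Ass1), chr5:130011258-130024381 (Asl), chr10:24915207-24927470 (Arg1), chr11:101367716-101377903 (G6pc), chr10:93488768-93516761 (Hal), chr5:120476547-120483932 (Sds) and chr10:128194635-128210004 (Gls2), per the RefSeq table used for names. The files do not give the position of a probe within its transcript.

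None of the 8 measured genes passed the test between exposed and control livers over all animals. The limma test called 0 of 8, against 0.0169% of all probes tested. At an unadjusted p under 0.05 there were also 0 of 8, against 12.2% of all probes. In log2 ratio 6 genes averaged lower and 2 higher in exposed animals, and the median difference was -0.10 over the members and 0.01 over all probes. For each of the 8 genes the exposed and control values overlapped. The share of all probes that overlapped is not given here.

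Otc makes citrulline from ornithine and carbamoyl phosphate in the mitochondria. Its log2 ratio ran from 5.41 through a median of 6.76 to 7.50 in exposed animals, against 5.64, 6.96 and 7.95 in controls. The means of 6.78 ± 0.51 (SD, n = 14) in exposed and 6.90 ± 0.61 (SD, n = 16) in control animals differed by -0.12 ± 0.18 (SE, adjusted p = 0.852 in limma). The second Otc probe gave -0.08 ± 0.15 (adjusted p = 0.890), with 1 control value missing. In log2 ratio Otc had the widest spread of all members over the 30 animals, with an SD of 0.56. Its lowest value was in exposed animal 176 and its highest in control animal 596. In the Cy5 signal alone its SD was 0.26, where G6pc had the largest of the members, 0.67. In Cy3 the probe that stands for Otc was well above background on 24 of 30 arrays.

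Ass1 joins citrulline to aspartate and brings in the second nitrogen of urea. Exposed animals had log2 ratios of 3.76 to 4.54 around a median of 4.13, and controls 3.48 to 5.26 around a median of 4.02. The means were 4.15 ± 0.23 in exposed and 4.13 ± 0.53 in control animals, a difference of 0.03 ± 0.13 (adjusted p = 0.948). The 3 highest Ass1 values, 5.26, 5.07 and 4.85, all belonged to controls, namely animals 596, 572 and 600, of which 596 and 572 are the arrays of slide 6. With slide as a fixed effect Ass1 differed by 0.10 ± 0.10 (adjusted p = 0.751).

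Asl splits argininosuccinate into arginine and fumarate. Its log2 ratio was 3.17 to 4.14 with a median of 3.49 in exposed and 2.96 to 3.85 with a median of 3.49 in control animals. The difference in means was 0.07 ± 0.08 (adjusted p = 0.793), the most narrowly bounded of the 8, with a 95% confidence interval from -0.10 to 0.23. Only exposed animal 177, at 4.14, lay above the control range.

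Arg1 releases urea from arginine and returns ornithine to the cycle. Exposed animals ranged from 5.37 to 6.57 with a median of 6.08, and controls from 5.38 to 6.94 with a median of 6.16. The difference was -0.08 ± 0.12 (adjusted p = 0.842), and exposed animals were lower on 4 of the 7 slides that held both groups.

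G6pc, the catalytic subunit of glucose-6-phosphatase, frees glucose for export from the liver. Its log2 ratio was 4.35 to 5.59 with a median of 5.19 in exposed and 4.54 to 6.57 with a median of 5.19 in control animals. The means of 5.15 ± 0.35 in exposed and 5.29 ± 0.62 in control animals differed by -0.13 ± 0.16 (adjusted p = 0.798). The 4 highest values, 6.57, 6.39, 5.99 and 5.79, were all in controls.

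Hal removes ammonia from histidine in the first step of its breakdown. The log2 ratio ran from 5.31 to 6.11 (median 5.71) in exposed and from 5.22 to 6.47 (median 5.77) in control animals, a difference of -0.11 ± 0.10 (adjusted p = 0.681). Sds, which turns serine into pyruvate and ammonia, ranged from 4.58 to 5.89 (median 5.27) in exposed and from 4.54 to 6.00 (median 5.26) in control animals, and differed by -0.02 ± 0.13 (adjusted p = 0.964). For both genes all 14 exposed values lay within the control range.

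Gls2, the liver glutaminase that supplies ammonia beside the first urea cycle step, came nearest to a difference. Exposed animals ran from 4.84 through a median of 5.29 to 5.84, against 4.92, 5.51 and 5.99 in controls. The means of 5.34 ± 0.32 in exposed and 5.51 ± 0.32 in control animals differed by -0.18 ± 0.11 (adjusted p = 0.517), with a 95% confidence interval from -0.39 to 0.04. Exposed animals averaged lower on 6 of the 7 slides with both groups.

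Over the 8 genes the 95% interval of the exposed to control fold reached from 0.71 for Otc at its lower end to 1.23 for Ass1 at its upper end.

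**Figure D1:**
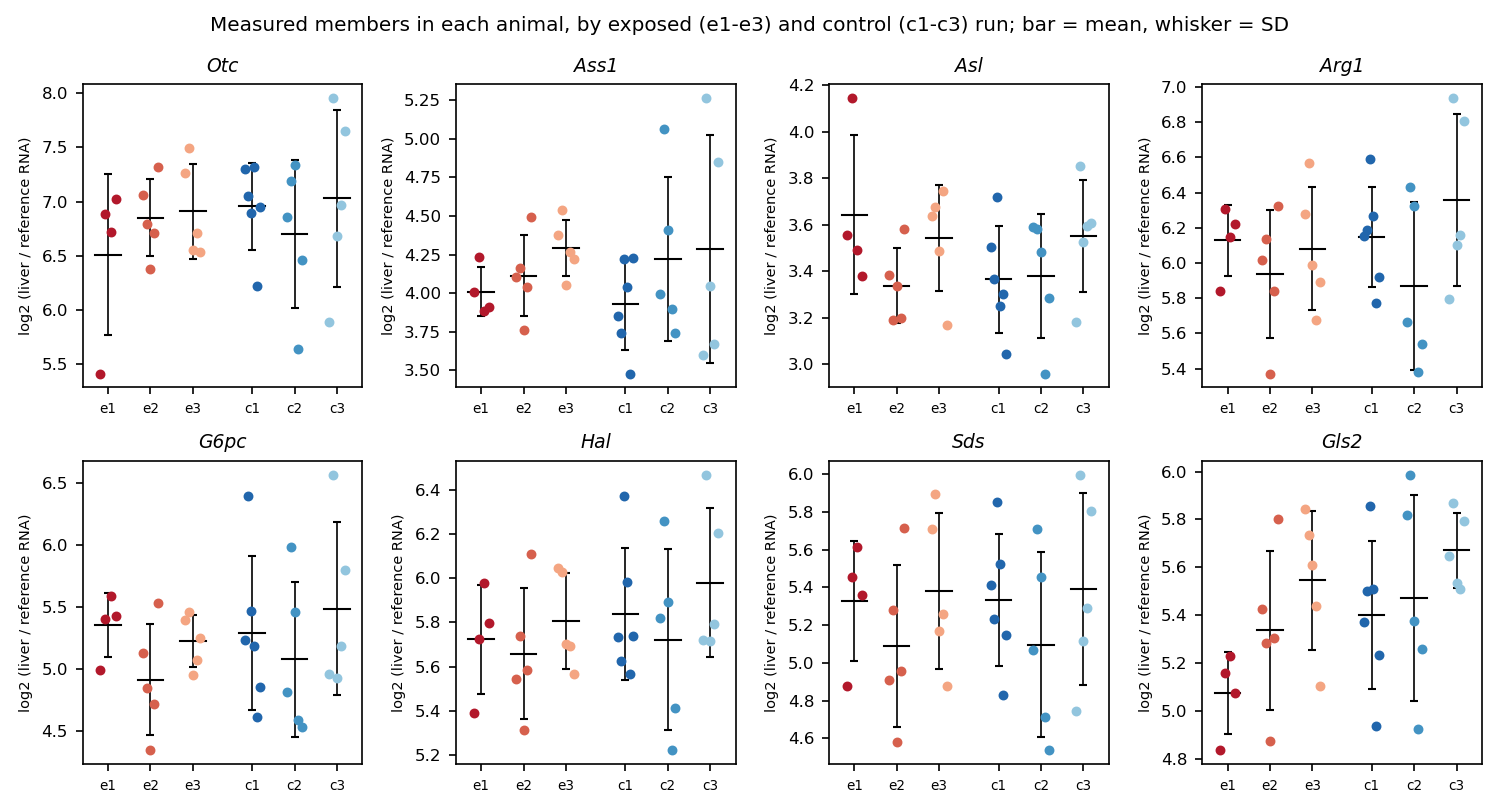
Log2 ratio of liver over reference RNA (vertical axis) for the 8 measured genes, with 1 point per animal, in exposed runs 1 to 3 (e1 to e3, red) and control runs 1 to 3 (c1 to c3, blue); bars are means and whiskers SD. Exposed and control points overlap in every panel, and for Gls2 the 4 animals of exposed run 1 lie between 4.84 and 5.23, below the control median of 5.51.

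Splitting the exposed animals by run asks whether the level differed among the 3 runs. The labels match no exposed run to a control run, so a response per run cannot be measured. Among exposed runs 0 of 8 members passed the F test of limma, against 4.13% of all probes, and among control runs also 0 of 8, against 0.089%. Against the mean of the control runs, 0 of 8 members passed in exposed run 1 (4.8% of probes), 0 of 8 in run 2 (0.0169%) and 0 of 8 in run 3 (0.131%). At an unadjusted p under 0.05 the F test had 1 of 8 members among exposed runs, against 19.5% of all probes, and 0 of 8 among control runs, against 7.03%. Unadjusted, exposed run 1 had 1 of 8 members against 18.7% of probes, run 2 had 0 of 8 against 10.3% and run 3 had 0 of 8 against 13.1%, so no member count exceeded its background. The median member difference was -0.08 in run 1, -0.14 in run 2 and 0.03 in run 3, where the median of all probes was -0.01, 0.03 and 0.01.

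The 1 member under 0.05 unadjusted was Gls2, in both tests. Its 4 animals of exposed run 1 had log2 ratios of 4.84, 5.16, 5.23 and 5.07, against a control range of 4.92 to 5.99. All 4 lay below the control median of 5.51, and 1 lay below every control. The difference was -0.48 ± 0.15 (SE, n = 4 against 16), a fold of 0.718, with an adjusted p of 0.0610 in limma.

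The other exposed runs lay nearer to the controls for Gls2, with -0.14 ± 0.14 in run 2 and 0.02 ± 0.14 in run 3. Among the 3 exposed runs the F test for Gls2 gave an adjusted p of 0.204. Without exposed animal 195, control 551 or control 574, the adjusted p for Gls2 in run 1 was 0.0449, 0.0436 or 0.0280. The fits without each of the other 27 animals did not call it, with adjusted p-values up to 0.219 (a difference of -0.40) without exposed animal 176. With slide as a fixed block the run 1 difference was -0.55 and the adjusted p 0.0472.

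Otc had the next largest difference in exposed run 1, -0.43 ± 0.29 (adjusted p = 0.455). Its 4 values of 5.41, 6.88, 6.72 and 7.02 show 1 low animal, 176, beside 3 within the control range, and without it the difference was -0.02 ± 0.28 (adjusted p = 0.986). Asl had the largest positive one, 0.19 ± 0.12 (adjusted p = 0.415), with values of 3.56, 4.14, 3.49 and 3.38 of which 4.14 alone lay above all controls. In exposed run 2 the largest was G6pc with -0.31 ± 0.23 (adjusted p = 0.654), and in run 3 Ass1 with 0.16 ± 0.18 (adjusted p = 0.778).

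**Figure D2:**
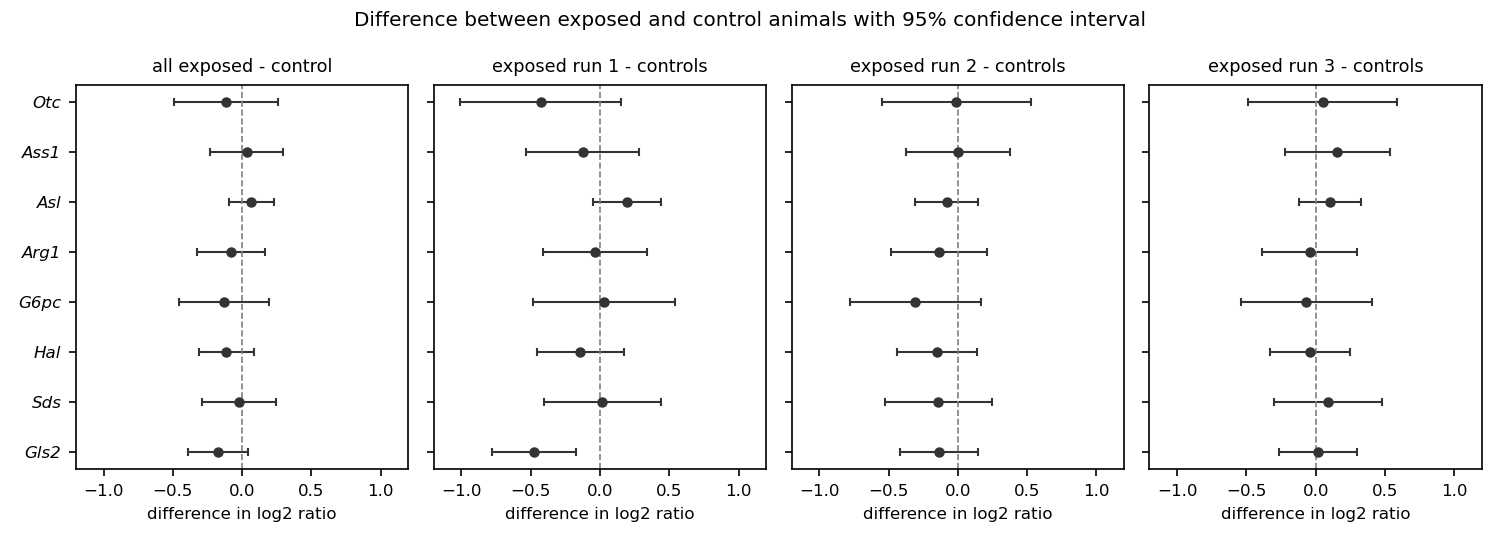
Difference in log2 ratio (horizontal axis) between exposed and control animals for the 8 measured genes, for all exposed animals and for each exposed run against the mean of the control runs; points are limma estimates and lines 95% confidence intervals. Every interval spans 0 except that of Gls2 in exposed run 1, which reaches from -0.78 to -0.17.

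The liver channel was also examined by itself, as the Cy5 signal after quantile normalisation between arrays, without division by Cy3. In the Cy5 signal limma called 0 of 8 members between all exposed and all control animals, where 0% of probes were called. At an unadjusted p under 0.05 there were 2 of 8, against 9.48% of probes. These were Otc with -0.18 ± 0.08 (adjusted p = 0.50) and Hal with -0.25 ± 0.09 (adjusted p = 0.395). Against the mean of the control runs, Hal and Gls2 passed in exposed run 1 (2 of 8 members, against 3.67% of probes). In the F tests G6pc passed among the exposed runs (1 of 8, against 1.89%) and among the control runs (1 of 8, against 0.11%), while for Hal the F test gave an adjusted p of 0.0919 among exposed and 0.800 among control runs. Of all probes, 1.46% were lower in exposed run 1 and 2.21% higher in Cy5. In exposed run 2 limma called 0 of 8 members, against 0.00847% of probes, and in run 3 also 0 of 8, against 0.00847%. Unadjusted there were 1 of 8 in run 2, against 4.8% of probes, and 0 of 8 in run 3, against 7.12%.

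Hal had log2 Cy5 signals of 14.42, 14.11, 13.78 and 14.46 in exposed run 1, against 14.52 to 15.45 with a median of 14.77 in the 16 controls. It fell by 0.61 ± 0.12 against the mean of the control runs, a fold of 0.655 (adjusted p = 0.00369 in limma). Without exposed animal 179 the fall was 0.47 and the adjusted p 0.0542. The Cy3 signal of the same probe was 8.13, 8.19, 7.66 and 8.38 in these 4 animals and differed by -0.38 ± 0.12 (p = 0.00421, adjusted p = 0.677). In log2 ratio the same 4 animals had 5.39, 5.73, 5.98 and 5.80 and differed by -0.14 ± 0.15 (adjusted p = 0.686).

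Gls2 had log2 Cy5 signals of 14.65, 14.44, 15.09 and 14.62 in exposed run 1, against 14.48 to 15.90 with a median of 15.21 in controls. It fell by 0.61 ± 0.16 (adjusted p = 0.0268 in limma), a fold of 0.655, with 1 animal below all controls. Without exposed animal 176, 177 or 180 it was no longer called, with adjusted p-values up to 0.128. Its Cy3 signal differed by -0.07 ± 0.10 (adjusted p = 0.841 in limma). In log2 ratio, which shares the Cy5 signal, Gls2 differed by -0.48 ± 0.15 and was not called (adjusted p = 0.0610 in limma).

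G6pc was the member whose liver signal varied most among runs. Its log2 Cy5 signal was 14.21, 13.98, 13.97 and 14.27 in exposed run 1 and 15.10, 15.00, 15.22, 15.28 and 15.29 in exposed run 2. In exposed run 3 it was 13.81, 13.69, 13.58, 13.91 and 14.92. Every animal of exposed run 2 thus lay above every other exposed animal (adjusted p = 0.00642 in the limma F test, called without each of the 30 animals in turn).

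Among controls the G6pc signal of run 1 ran from 13.17 to 13.75 in 5 of 6 animals, and the sixth was also below every animal of run 2. It was 14.40, 14.66, 15.09, 14.27 and 14.67 in run 2 and 13.95, 15.37, 15.02, 14.56 and 14.85 in run 3. The 3 control runs differed (adjusted p = 0.00461 in the limma F test), so the signal also varied where no particles were given. Exposed run 2 minus the mean of the control runs was 0.84 ± 0.17 (adjusted p = 0.117). Against single control runs the difference was 1.58 ± 0.20 for control run 1 (adjusted p = 0.000316), 0.59 ± 0.21 for run 2 (adjusted p = 0.999984) and 0.36 ± 0.22 for run 3 (adjusted p = 0.909), so it passed against 1 of the 3.

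In the Cy3 signal limma called 0 of 8 members among exposed runs, against 0.0339% of probes, and 0 of 8 in exposed run 1, against 0.0424%. Among control runs it called 0 of 8, against 0% of probes. Unadjusted there were 2 of 8 among exposed runs, against 2.7% of probes, 2 of 8 among control runs, against 3.57%, and 1 of 8 in exposed run 1, against 7.11%. For G6pc the limma F test of the Cy3 signal gave F = 12.9 among exposed runs (p = 0.000106, adjusted p = 0.208) and F = 15.8 among control runs (p = 2.55e-05, adjusted p = 0.301). The reference channel at the G6pc probe moved with the liver channel although Cy3 holds the same RNA on every array. In log2 Cy3 signal exposed run 2 had 9.37, 9.58, 10.29, 10.00 and 9.22, while control run 1 ran from 7.20 to 8.73. The difference was 1.59 ± 0.20 (adjusted p = 0.000422), against control run 2 it was 0.62 ± 0.21 (adjusted p = 0.999906) and against control run 3 0.61 ± 0.22 (adjusted p = 0.998). Against the mean of the control runs it was 0.94 ± 0.17 (p = 9.17e-06, adjusted p = 0.217). In the ratio the G6pc difference of exposed run 2 was -0.31 ± 0.23, of the opposite sign, and the F test gave an adjusted p of 0.767 among exposed and 0.929 among control runs. The part of the reference channel in the G6pc, Hal and Gls2 results was not tested.

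**Figure D3:**
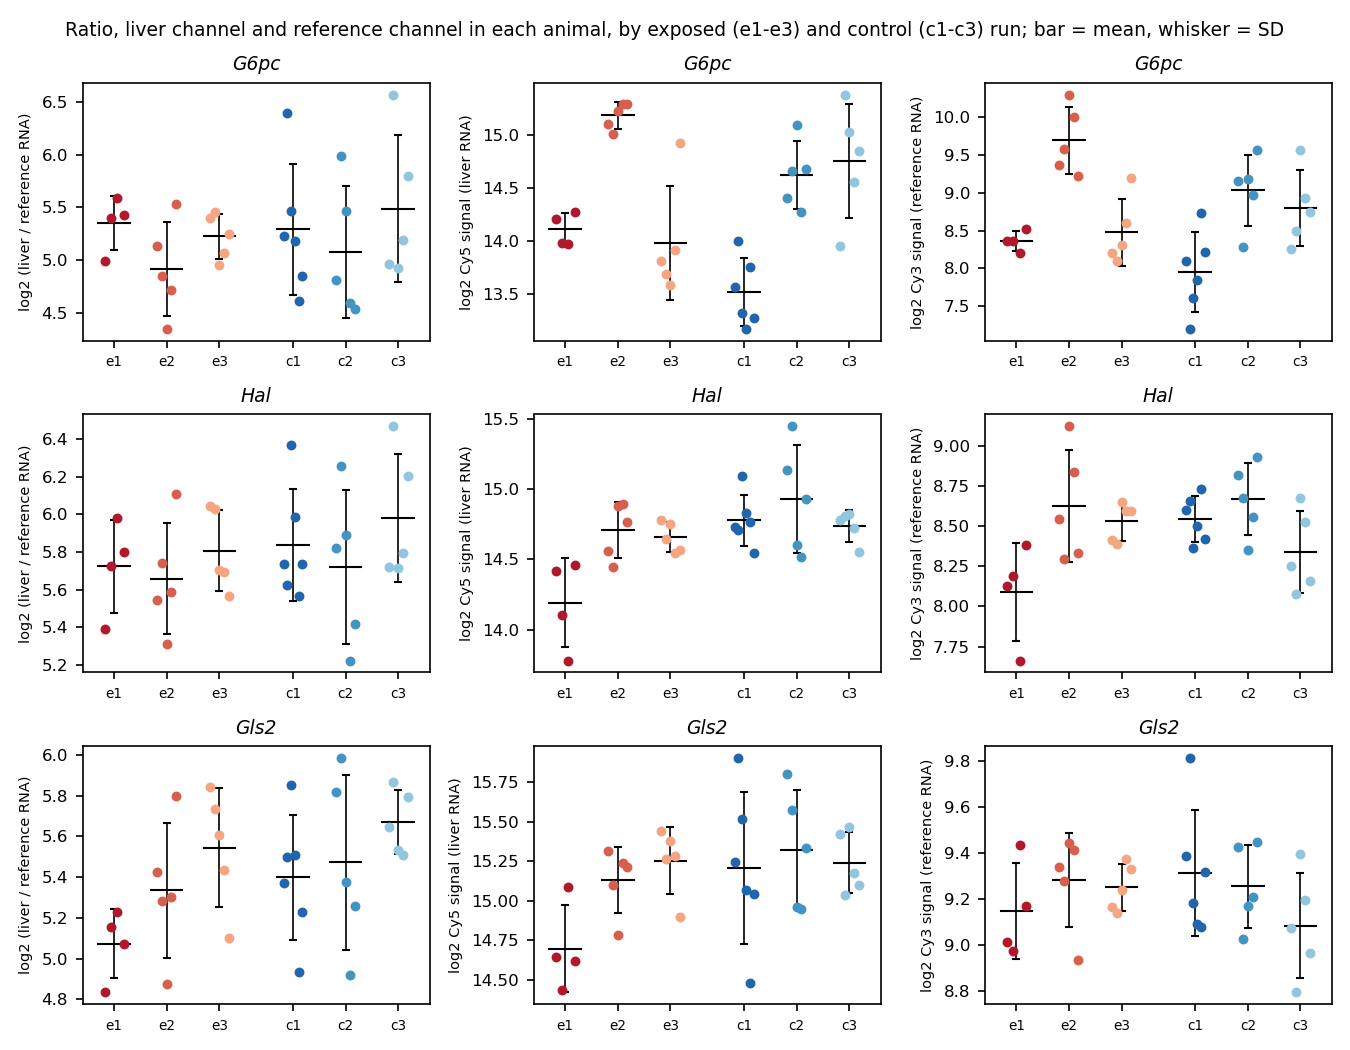
Log2 ratio (left), log2 Cy5 signal of liver RNA (middle) and log2 Cy3 signal of reference RNA (right) for G6pc, Hal and Gls2, with 1 point per animal in exposed runs 1 to 3 (e1 to e3) and control runs 1 to 3 (c1 to c3); bars are means and whiskers SD. The 5 G6pc points of exposed run 2 stand highest among exposed animals in Cy5 (15.00 to 15.29) and in Cy3 (9.22 to 10.29) but not in the ratio. In Cy5 the 4 Hal points of exposed run 1 run from 13.78 to 14.46 and the controls from 14.52 to 15.45.

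Over the 30 arrays the Cy3 and Cy5 signals at the same member probe were correlated for 7 of 8 genes by Pearson and 6 of 8 by Spearman (permutation test, adjusted over 8 genes). Asl had the highest Pearson coefficient, r = 0.86 and rho = 0.63 (permutation p = 1e-05, the smallest that 100000 resamples can give), with r = 0.69 without the 2 animals farthest from the median and 0.92 within slides. G6pc had the highest Spearman coefficient, rho = 0.80 and r = 0.77, with 0.81 without 2 animals and 0.86 within slides. Otc gave r = 0.15 and rho = 0.19 (adjusted permutation p = 0.431).

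Upstream bases are shown for G6pc and Hal, the members with the smallest adjusted p in Cy5, G6pc in the F tests and Hal in exposed run 1 against the controls, where neither passed in the ratio. The RefSeq promoter table of build GRCm38.p6 has an entry for 4 of the 8 measured genes, Otc, Ass1, G6pc and Hal. Shown are the 250 bases before the transcription start on the plus strand, chr11:101367466-101367715 for G6pc and chr10:93488518-93488767 for Hal, with capitals for matches to any of 5 short motifs searched on both strands.
G6pc: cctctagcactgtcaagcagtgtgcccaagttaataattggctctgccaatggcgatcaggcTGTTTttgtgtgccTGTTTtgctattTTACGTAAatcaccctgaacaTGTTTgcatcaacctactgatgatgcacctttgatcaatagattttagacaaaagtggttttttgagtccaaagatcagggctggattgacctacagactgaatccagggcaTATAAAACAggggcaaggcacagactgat
Hal: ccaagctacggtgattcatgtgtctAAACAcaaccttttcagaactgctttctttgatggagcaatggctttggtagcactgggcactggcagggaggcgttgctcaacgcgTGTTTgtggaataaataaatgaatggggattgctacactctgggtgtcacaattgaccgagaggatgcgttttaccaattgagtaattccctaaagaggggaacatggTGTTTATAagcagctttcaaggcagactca

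The motifs were the TATA box TATAAA, the cAMP response element half-site TGACG, the related palindrome TTACGTAA, the forkhead core TGTTT and the glucocorticoid half-site AGAACA. The G6pc window held TTACGTAA with its first base 162 bases before the start, a match found in 0.11% of all 32851 such windows. It also held 4 forkhead cores, at 188, 174, 141 and 25 bases before the start, and TATAAA at 29, where the last forkhead core overlaps it. The Hal window held 3 forkhead cores, at 225, 138 and 30, and the reverse complement of TATAAA at 28, overlapping the last of them. A forkhead core occurs in 46.4% and TATAAA in 12.37% of all windows, and TGACG (17.77% of windows) and AGAACA (16.08%) matched neither gene. A match is a description of the letters and not a measured site.

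In log2 ratio the 8 genes varied together from animal to animal. All 28 pairs were positively correlated over the 30 animals, with r from 0.44 to 0.92 and a median of 0.67, and all 28 passed after adjustment by Pearson and by Spearman (permutation tests with 100000 resamples, largest adjusted p = 0.0154). Other genes high in liver shared much of this. Over the pairs of 642 other genes with a mean log2 ratio above 3 and no missing value, a level that each of the 8 members also has, the median r was 0.49 and 56.7% of pairs had r at or above the lowest member pair. Over the pairs of all 11563 other tested genes with no missing value the median r was 0.04 and 7.22% reached it. All these arrays share the reference RNA. The closest member pair was Hal with Sds, r = 0.92 and rho = 0.91, and r was 0.90 without the 2 animals farthest from the median, 0.96 within exposed and 0.92 within control animals. Arg1 with Sds followed, r = 0.91 and rho = 0.92.

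Removing the 6 run means left a median r of 0.73, and removing slide means a median of 0.57. Asl stood least close to the others within slides. Its pair with Gls2 gave r = 0.44 and rho = 0.54 over all animals (adjusted permutation p = 0.0154) but 0.06 within slides, and its pair with Hal r = 0.54 and rho = 0.56 but 0.10 within slides. All 7 pairs with Asl were low within slides, from 0.06 to 0.25, and so was G6pc with Gls2 at 0.24. The coefficients within slides were not tested. The other pairs ran from 0.44 to 0.87 within slides.

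The pairs were not related in this way in the liver channel by itself. In the Cy5 signal 0 of the 28 pairs passed after adjustment (permutation tests), r ran from -0.38 to 0.53 and the median was 0.12. Hal with Gls2 came nearest, r = 0.53 and rho = 0.54 (adjusted permutation p = 0.0759), with 0.60 without 2 animals and 0.70 within slides. Hal with Sds, the closest pair in the ratio, gave r = 0.02 in Cy5.

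Of 5 measures of the whole array, the mean log2 ratio of the 8 genes was correlated with 3 by Pearson and 4 by Spearman after adjustment (permutation tests). It was lowest at 4.74 among exposed animals in animal 195 and reached 5.68 at most, against 4.67 in control 574 and 6.11 in control 596. Over the 30 animals it rose with the mean of the 5 hepatocyte markers, r = 0.86 and rho = 0.79 (permutation p = 1e-05), and r was 0.81 without 2 animals and 0.90 within slides. It also rose with the SD of all log ratios on the array, r = 0.77 and rho = 0.77, and with the mean of 1004 probes high in liver, r = 0.86 and rho = 0.89. The median Cy5 signal gave r = -0.33 and rho = -0.42 (adjusted permutation p = 0.0978 and 0.0260). The median Cy3 signal gave r = -0.09 and rho = -0.17 (adjusted permutation p = 0.622 and 0.382). The part of these array measures in the relation among the members was not tested.

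**Figure D4:**
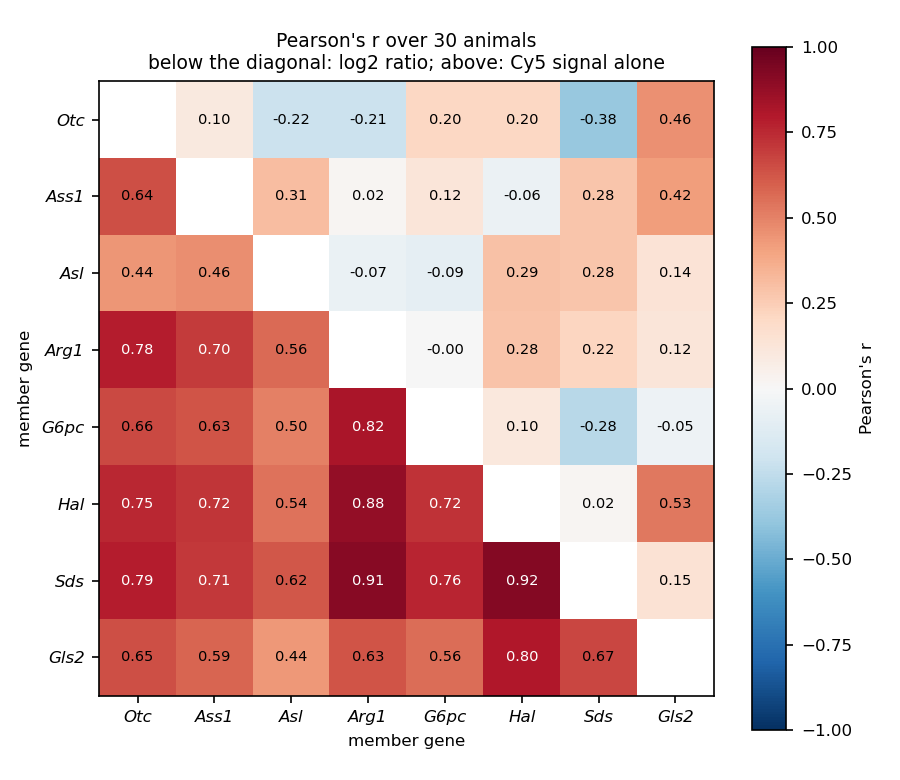
Pearson's r over 30 animals for each of the 28 pairs of measured genes, for the log2 ratio below the diagonal and the Cy5 signal alone above it, on a colour scale from -1 to 1. All ratio values lie between 0.44 and 0.92, and the Cy5 values between -0.38 and 0.53.

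Other genes of the same pathways were compared in the same fits. Of 11 tested genes of the urea cycle and ammonia handling 0 were called between all exposed and all control animals (2 of 11 at an unadjusted p under 0.05 in limma), and of 15 of gluconeogenesis and glucose release also 0 (1 of 15 unadjusted). Of 22 genes of periportal amino acid breakdown 0 were called (0 of 22 unadjusted). Of all probes 12.2% had an unadjusted p under 0.05. Nearest to the threshold were Got2, mitochondrial aspartate aminotransferase, with 0.12 ± 0.04, and Slc37a4, the glucose-6-phosphate transporter, with 0.21 ± 0.08 (adjusted p = 0.253 for both). Slc25a13, the mitochondrial aspartate and glutamate carrier, had 0.14 ± 0.07 (adjusted p = 0.397), Fbp1, fructose-1,6-bisphosphatase, -0.25 ± 0.13 (adjusted p = 0.463), and Agxt2 0.26 ± 0.15 (adjusted p = 0.476).

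In exposed run 1, which holds the array of animal 176 that stood apart, the ratio of 3 genes of these lists fell. Of 11 urea cycle and ammonia genes 2 fell and 0 rose, Glud1 and Got1, against 1 of 15 gluconeogenic genes, Pgam1, and 0 of 22 amino acid breakdown genes. Of all probes 3.19% fell and 1.6% rose in this comparison. The list medians of -0.03, -0.06 and -0.06 were close to the -0.01 of all probes.

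Glud1, glutamate dehydrogenase, which frees ammonia from glutamate, had log2 ratios of 2.09, 2.35, 2.40 and 2.43 in exposed run 1, against 2.39 to 3.07 with a median of 2.70 in controls. It fell by 0.38 ± 0.10 (adjusted p = 0.0189 in limma), with 2 of the 4 animals below all controls. It was not called without exposed animal 176 or 177, against control run 1 alone, or in the Cy5 signal, where the difference was -0.19 ± 0.09 (adjusted p = 0.279). Nor was it called with slide as a fixed block or with processed signals.

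Got1, cytosolic aspartate aminotransferase, which makes the aspartate used by Ass1, had 0.90, 0.63, 1.47 and 1.02 in exposed run 1, against 1.06 to 1.89 with a median of 1.51 in controls. It fell by 0.53 ± 0.15 (adjusted p = 0.0307), and in Cy5 by 0.79 ± 0.16 (adjusted p = 0.00411, called without each of the 30 animals in turn). The call in the ratio was lost without exposed animal 176, 177 or 180 and against control run 1 or 2 alone. A fixed slide block, processed signals, the deposited value table or leaving out the 5 arrays of the older extraction version also ended it.

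Oat, ornithine aminotransferase, links ornithine to glutamate and is known as a pericentral gene. It had 1.98, 2.11, 2.86 and 2.51 in exposed run 1, against 2.43 to 3.45 with a median of 2.96 in controls, and fell by 0.62 ± 0.14 (adjusted p = 0.0112). In Cy5 the difference was -0.41 ± 0.19 (adjusted p = 0.250), and in the ratio the call was lost without exposed animal 176 or 177 and against control run 1 or 2 alone. Oat was the 1 of 11 tested pericentral ammonia and drug genes called in the ratio in exposed run 1, against 4.8% of all probes.

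Pgam1, phosphoglycerate mutase, shared by glycolysis and gluconeogenesis, had -3.49, -2.80, -2.76 and -3.05 in exposed run 1, against -2.77 to -2.42 with a median of -2.68 in controls. It fell by 0.37 ± 0.09 (adjusted p = 0.0147). The call in the ratio was lost without exposed animal 176, where the difference was -0.22 (adjusted p = 0.166), with a fixed slide block and against control run 1 or 2 alone. In Cy5 it fell by 0.72 ± 0.20 (adjusted p = 0.0419), where animal 179 stood at 11.79 and the other 3 of the run between 13.70 and 13.92. Without animal 179 the Cy5 difference was -0.24 (adjusted p = 0.486), and the call held in 19 of the 30 fits that left out 1 animal. Sik1, a kinase known to be induced by cAMP and to restrain gluconeogenic genes, had 0.32, 0.76, 0.38 and 0.78, against -0.75 to 0.59 with a median of -0.14 in controls. It rose by 0.63 ± 0.18 (adjusted p = 0.0429 in limma), and in Cy5 by 0.71 ± 0.17 (adjusted p = 0.0168, lost without exposed animal 176 or 177). Of 24 tested genes of fasting, cAMP, glucagon and glucocorticoid control it was the 1 called in the ratio, against 4.8% of all probes. The Sik1 call in the ratio was lost without any of exposed animals 176, 177, 179 and 180 or of controls 547, 550, 570, 595, 596, 598 and 599, and against each control run alone. It was also lost with slide as a fixed block, with processed signals and without the filter on dim probes. Leaving out the 5 arrays of the older extraction version ended it too.

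Single markers of hepatocytes and of other cells were also called in exposed run 1. Ttr, 1 of the 5 tested hepatocyte markers, had log2 ratios of 3.41, 5.19, 3.39 and 5.04 there, against 4.69 to 6.05 in controls, a fall of 1.14 ± 0.25 (adjusted p = 0.00802). Its call was lost without exposed animal 176, where the difference was -0.82 (adjusted p = 0.0880), without 179 and against control run 1 alone, and with processed signals the difference had the opposite sign, 0.57 (adjusted p = 0.128). Col1a1, 1 of 5 stellate cell markers, fell by 0.61 ± 0.18 (adjusted p = 0.0433), and Spp1, 1 of 5 cholangiocyte markers, by 0.59 ± 0.17 (adjusted p = 0.0462). The Col1a1 call was lost in 12 of the 30 fits without 1 animal and the Spp1 call in 19, and without exposed animal 176 the differences were -0.37 (adjusted p = 0.314) for Col1a1 and -0.35 (adjusted p = 0.337) for Spp1. Both calls were also lost with slide as a fixed block and against each control run alone, and in Cy5 Spp1 differed by -0.36 (adjusted p = 0.313). In exposed run 1 the median difference was -0.11 over the 5 hepatocyte markers (1 of 5 unadjusted), 0.05 over the 5 stellate cell markers (1 of 5) and -0.26 over the 5 cholangiocyte markers (3 of 5), against -0.01 over all probes, of which 18.7% had an unadjusted p under 0.05.

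Other marker lists had no call in the ratio. The median difference in exposed run 1 was -0.23 over 6 Kupffer cell and macrophage markers (1 of 6 unadjusted), with Adgre1 at -0.49 ± 0.15 (adjusted p = 0.0617), and -0.26 over 6 endothelial markers (2 of 6 unadjusted). It was -0.14 over 4 T and B cell markers (1 of 4 unadjusted). Both tested neutrophil markers were higher at an unadjusted p under 0.05, S100a8 with 0.27 ± 0.11 (adjusted p = 0.187) and S100a9 with 0.65 ± 0.32 (adjusted p = 0.268). Both were also under 0.05 unadjusted in exposed run 2 (list median 0.49) and over all exposed animals (0.41), and neither in run 3 (0.25). The mean level over a list, as log2 ratio, ran from 4.77 to 5.24 in exposed run 1 and from 4.66 to 5.98 in control animals for hepatocytes. For stellate cells it was -0.44 to 0.42 in exposed run 1 and -0.24 to 0.63 in controls, and for cholangiocytes -2.83 to -2.57 in exposed run 1 and -2.59 to -2.05 in controls. For Kupffer cells and macrophages it was 3.1 to 3.7 in exposed run 1 and 3.05 to 4.32 in controls, and for endothelial cells 2.29 to 3.26 in exposed run 1 and 2.45 to 3.65 in controls. For neutrophils it was 1.73 to 2.22 in exposed run 1 and 0.78 to 2.34 in controls. For T and B cells it was -1.10 to -0.99 in exposed run 1 and -1.02 to -0.47 in controls. The exposed run 1 values of each of these lists overlapped the control values. For cholangiocytes the overlap was small, since the run 1 median of -2.60 lay below the lowest control at -2.59. The same held for T and B cells, with a run 1 median of -1.08 and the lowest control at -1.02. The part of these markers in the results of exposed run 1 was not tested.

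In exposed runs 2 and 3 no gene of these lists was called (0 of 11, 0 of 15 and 0 of 22 in each in limma, with 0, 1 and 1 unadjusted in run 2, where 10.3% of all probes were, and 2, 1 and 0 in run 3, where 13.1% were). Slc25a13 came nearest in run 3, 0.31 ± 0.08 (adjusted p = 0.0940), and Slc37a4 in run 2, 0.30 ± 0.10 (adjusted p = 0.268).

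**Figure D5:**
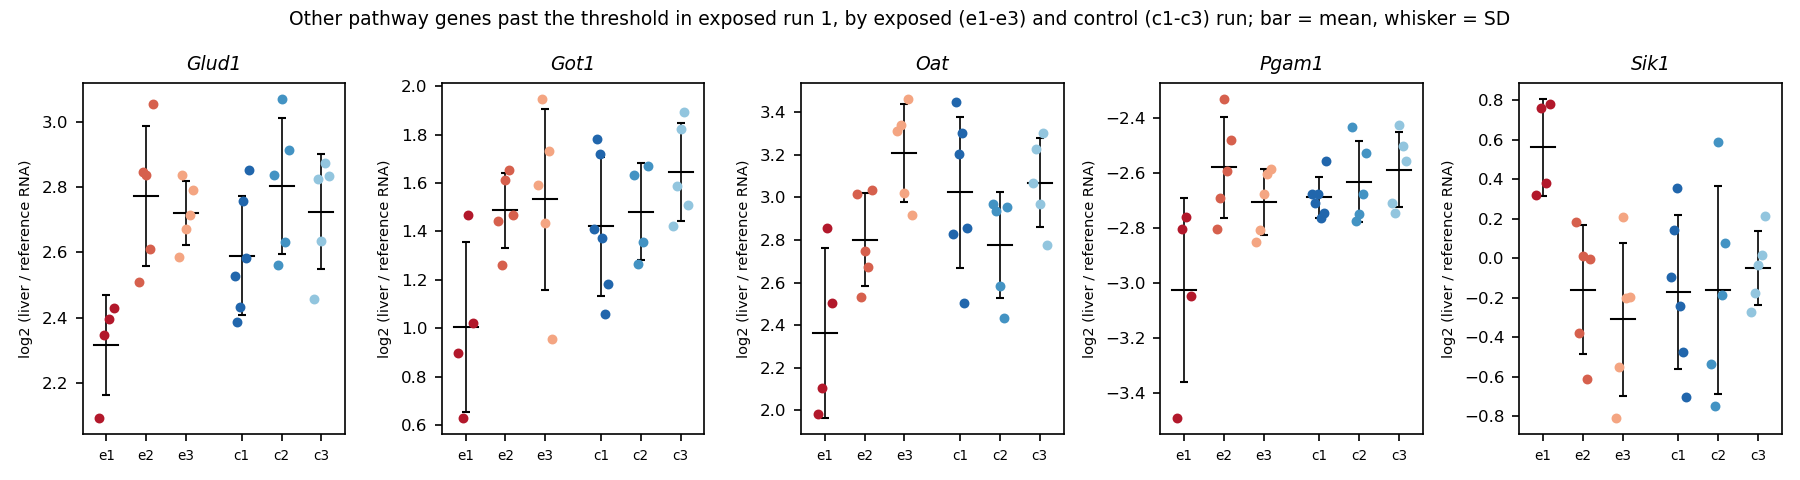
Log2 ratio of liver over reference RNA for Glud1, Got1, Oat, Pgam1 and Sik1, with 1 point per animal in exposed runs 1 to 3 (e1 to e3, red) and control runs 1 to 3 (c1 to c3, blue); bars are means and whiskers SD. Exposed run 1 is the lowest group for the first 4 genes and the highest for Sik1, where its 4 values run from 0.32 to 0.78.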

How the data were processed

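Each of 30 two-colour arrays carried the liver RNA of 1 mouse in Cy5 and reference RNA in Cy3, with no dye swap. The deposited scanner files hold spot and background intensity for both dyes, and the log10 ratio of the processed signals, made with Feature Extraction 10.7.3.1 (25 arrays) or 10.1.1.1 (5 arrays), per the file headers. The deposited value table holds log2 ratios whose normalization is not given in the sources used here. Its columns follow the log2 ratio of Cy5 over Cy3 of their own array (r of 0.997 or more over 15631 probes) and have medians of -0.044 to -0.0186.

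Median signals were corrected with normexp (offset 50) and normalised by loess within arrays in limma 3.58.1 (R 4.3.3). Outlier spots were set missing and spots of a probe averaged. Probes well above background in Cy5 on at least 14 arrays were tested (23607 of 41174). Slide was a random block (correlation 0.159 in the group fit and 0.147 in the run fit). The fits were tested on simulated data. Of 41174 probes 24375 were named through RefSeq (GRCm38.p6), and where a gene had several tested probes the brightest in Cy5 on average stands for it. Replicates are animals. Exposed arrays lay at other slide positions than control arrays, so position and exposure cannot be told apart. Position also follows the runs: all 4 arrays of exposed run 1 lay at position 3, all 5 of exposed run 3 at position 4 and those of exposed run 2 at both, and control runs 1 and 3 lay at positions 1 and 2, with control run 2 at both.

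The members, the 7 pathway lists and the 10 marker lists were chosen with earlier results of these data known. Named from each list are the genes past the threshold, at most 4, and otherwise the 2 with the smallest p. For the 3 members with the largest SD, the 3 genes with the most similar log2 ratio are named. The pairs of other genes were added after seeing the data.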

Additional observations from a re-analysis of the deposited data

Results flagged for a closer look

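For 5 of 130 tested pathway and marker genes outside the members the log2 ratio differed among the 3 exposed runs (limma F test). That is 3.85%, against 4.13% of all probes. The differences given here are from the mean of the control runs. Oat gave F = 12.5 (adjusted p = 0.0108), with differences of -0.62 in exposed run 1, -0.14 in run 2 and 0.24 in run 3. Glud1 gave F = 8.12 (adjusted p = 0.0437), with -0.38, 0.05 and 0.01. Sik1 gave F = 7.86 (adjusted p = 0.0480), with 0.63, -0.04 and -0.21. Cdh1, the epithelial cadherin, known as a periportal gene in the liver lobule, gave F = 8.32 (adjusted p = 0.0410), with -0.60, 0.39 and -0.08. Ttr, the plasma carrier transthyretin, gave F = 14.8 (adjusted p = 0.00561), with -1.14, 0.33 and 0.31.

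Leaving out 1 animal at a time ended the Glud1 call in 14 of 30 cases, the Sik1 call in 19, the Cdh1 call in 7, the Oat call in 2 (exposed 176 and 177) and the Ttr call in 1 (exposed 176). With slide as a fixed block all 5 calls ended (adjusted p = 0.250 for Glud1, 0.275 for Cdh1, 0.0580 for Oat, 0.172 for Sik1 and 0.0561 for Ttr). With array position as a term, which follows the runs, all 5 also ended, with adjusted p-values of 0.275 for Glud1, 0.167 for Cdh1, 0.308 for Oat, 0.128 for Sik1 and 0.119 for Ttr. With processed signals the call held for Oat (adjusted p = 0.0485) and ended for Glud1 (0.782), Cdh1 (0.481), Sik1 (0.0674) and Ttr (0.168). Median centring ended the calls of Glud1 (F = 0.030, adjusted p = 0.999753), Oat (0.777) and Sik1 (0.143). Without the filter on dim probes those of Glud1 (0.0576), Cdh1 (0.0593) and Sik1 (0.0722) ended, and in Cy5 alone those of Glud1 (0.676) and Oat (0.100). The Glud1 call also ended with the deposited table (0.0783) and with no background correction (0.0629).

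Among the 8 members a test of the gap between an extreme log2 ratio and its neighbour flagged 0 of 48 groups, where chance gives about 1 in 20. With 4 to 6 animals in a group it can miss a distant value. Otc in exposed animal 176, at 5.41 where the median of exposed run 1 was 6.80, was not flagged.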

How the results depend on the processing

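With the Cy5 signal alone the members called were 1 among exposed runs (G6pc), 1 among control runs (G6pc) and 2 in exposed run 1 (Hal and Gls2), and 0 of 28 gene pairs were correlated, against 0, 0, 0 and 28 in the ratio. In exposed run 1 the count was 1 (Gls2) with a fixed slide block and 1 under array weights (adjusted p = 0.0485), and 0 to 1 without each animal in turn. Without each animal the Cy5 counts were 1 to 2 among exposed runs, 1 to 1 among control runs and 1 to 2 in exposed run 1. The pair count was 27 to 28 without each animal and 24 with median centring. The sign changed for the G6pc difference of exposed run 2, 0.84 in Cy5, and the Ttr difference of exposed run 1, 0.57 with processed signals, and the cause was not tested. Of 1456 other values for single members 1448 kept their side of the threshold, and 139 uncalled ones changed sign. The list genes called in exposed run 1 lost their call with median centring except Ttr. The alternative without the 5 arrays of the older extraction version and the leave-one-out runs in Cy5 were chosen after seeing the data. No analysis paired by animal was possible because exposed and control animals share no numbers. Slides were shared, 7 of 9 holding both groups, and with slide as a fixed block 0 of 8 members were called between exposed and control animals. The number of arrays limits precision.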

Other observations

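Regulators of the same pathways did not pass the test either. Of 24 tested genes of fasting, cAMP, glucagon and glucocorticoid control 0 were called between all exposed and all control animals (6 of 24 at an unadjusted p under 0.05 in limma, against 12.2% of all probes). Cebpb, a transcription factor of the acute phase and of gluconeogenesis, had 0.67 ± 0.16 (adjusted p = 0.119), and Klf9, a glucocorticoid-induced factor, 0.58 ± 0.16 (adjusted p = 0.148). In exposed run 3 Klf9 had 0.89 ± 0.23 (adjusted p = 0.0999), and in exposed run 2 Fkbp5, a glucocorticoid target, had 1.22 ± 0.36 (adjusted p = 0.216).

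Of 12 genes of insulin action and glucose storage and use 0 were called (2 of 12 unadjusted, against the same 12.2%), with Pfkfb1 at 0.24 ± 0.10 (adjusted p = 0.306) and Pklr, liver pyruvate kinase, at 0.40 ± 0.17 (adjusted p = 0.315). Of 11 pericentral genes 0 were called (0 of 11 unadjusted), with Cyp2e1 at -0.16 ± 0.13 (adjusted p = 0.642) and Cyp27a1 at 0.17 ± 0.13 (adjusted p = 0.644). Of 10 other periportal genes 0 were called (1 of 10 unadjusted), with Mfsd2a, a lysophospholipid transporter, at 0.95 ± 0.25 (adjusted p = 0.143) and Atp2a2 at -0.11 ± 0.12 (adjusted p = 0.744).

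In exposed run 1 the Cy5 signal alone called 5 of 22 amino acid breakdown genes, all lower (Agxt, Cbs, Etnppl, Gls2 and Hal), where 1.46% of all probes were lower and 2.21% higher. Of the other lists it called 2 of 11 urea cycle and ammonia genes lower (Gls2 and Got1), and of 15 gluconeogenic genes 1 higher (Pcx) and 1 lower (Pgam1). It called 2 of 10 other periportal genes lower (Cdh1 and Cyp2f2), 1 of 11 pericentral genes lower (Glul), 1 of 24 fasting and hormone genes higher (Sik1) and 0 of 12 of insulin action. Among the markers Ttr, Clec4f of Kupffer cells, Col1a1 and Ms4a1 of B cells were lower. Leaving out each of the 30 animals in turn kept the Cy5 calls of Agxt, Cbs, Etnppl, Got1, Cdh1 and Ttr in 30 fits, Hal and Pcx in 29, Glul, Sik1, Col1a1 and Ms4a1 in 28, Gls2 and Cyp2f2 in 27, Clec4f in 23 and Pgam1 in 19. The part of the markers in these counts was not tested.

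Genes most like the 3 members most variable in log2 ratio were ranked over 30 animals and 12180 genes, as a description across arrays that share the reference RNA. Otc was most like Ugt2a3 (r = 0.97), Cyp2c23 (0.94) and Lipc (0.94), and in Cy5 alone these gave 0.51, 0.59 and 0.48. G6pc was most like Car3 (0.92), Prodh2 (0.92) and Sardh (0.91), and in Cy5 alone these gave -0.15, -0.03 and -0.25. Sds was most like Asgr2 (0.94), Ugt2b37 (0.94) and Cyp2a12 (0.94), and in Cy5 alone these gave -0.29, 0.09 and -0.08.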
